A study of Mus musculus with 40 samples.

Results

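Long-term haematopoietic stem cells (LT-HSC) were compared with short-term haematopoietic stem cells (ST-HSC) from mouse bone marrow, over 16 of the 40 columns of a gene count table. The LT-HSC side holds 8 columns, 4 wild-type (WT) and 4 Dnmt3a knockout (KO). The ST-HSC side holds the 8 columns named for ST-HSC. Those columns carry 4 names, each used 2 times and each naming wild type, while the labels list ST-HSC libraries of both genotypes. The genotype of a single ST-HSC column can therefore not be resolved, and both sides were pooled over genotype. The letters A to H used here name the ST-HSC columns in table order and carry no other meaning. The KO animals were Dnmt3a f/f with Mx1-Cre, in which interferon switches on the Cre recombinase in blood cells and also in other tissues. How Cre was induced, whether WT animals carried it, the age of the mice, the surface markers of the sort and the number of animals per library are not known from the labels at hand. Each library was made from polyA RNA amplified by a modified SMART-Seq2 protocol, a method for small numbers of cells.

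LT-HSC are the cells that can rebuild all blood lineages for the life of a transplanted animal. ST-HSC do so for a limited time and stand between LT-HSC and the multipotent progenitors. In mouse marrow, LT-HSC are known for the surface proteins encoded by Slamf1 (CD150) and Procr (EPCR) and for low CD34, CD48 and FLT3. CD34 and then FLT3 appear as cells lose long-term potential, and CD48 marks more committed progenitors. LT-HSC are also known as largely resting cells, and a fraction of them expresses platelet genes such as Vwf and Pf4.

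Total reads assigned to genes ranged from 16924296 to 45839319 in LT-HSC and from 25208803 to 48183273 in ST-HSC. 3 columns stood apart from the other 13. LT-HSC WT 1, LT-HSC Dnmt3a KO 2 and ST-HSC B had a median correlation of 0.652 to 0.681 with the other columns, against 0.741 to 0.779 elsewhere. They also had 12840 to 13302 genes with a read, against 13700 to 14519. ST-HSC C and D were far closer to each other (r = 0.994) than any other of the 120 pairs (at most 0.858). Their counts still differed by more than sampling noise, with a chi-square per gene of 6.45 against 121 for the next closest pair. A difference beyond counting noise does not show separate samples, and the labels do not say whether C and D are 1 sample or 2. They entered the test as 2 columns, so the 8 ST-HSC columns may count 1 sample 2 times. Results are given also without the 3 columns, and with C and D summed into 1, where the call changes. For some genes called without the 3 columns, the fit with both changes is also given. Each population held 4 columns with Y-linked transcripts and 4 with Xist, the transcript of the inactive X chromosome. All 3 columns that stood apart had Y-linked transcripts, and ST-HSC C and D had Xist. In fits within each sex, an effect of sex can therefore not be told apart from that of these columns. The labels name no animals, so p-values measure the spread between these libraries, which may be technical.

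Of the 4 genes that mark the 2 populations, Cd34 and Slamf1 separated them fully, and Cd34 alone passed the test. Procr and Cd48 overlapped. Whether the sort used the proteins of these genes or of Flt3 is not known. Their differences can therefore not be told apart from an effect of the sort itself. Levels are read counts scaled to a common library size (CPM) with TMM factors, and fold changes are LT-HSC minus ST-HSC on the log2 scale. Cd34 was lower in every LT-HSC column than in any ST-HSC column. Its lowest, median and highest levels were 142, 212 and 244 CPM in LT-HSC and 408, 576 and 748 CPM in ST-HSC. The log2 fold change was -1.50 (SE 0.18, edgeR adjusted p = 0.000472). In CMP/GMP WT, a mix of myeloid progenitors, Cd34 was at 548, 731 and 836 CPM, and in MEP WT, the megakaryocyte-erythroid progenitors, at 22, 57.9 and 68.8 CPM. ST-HSC were thus on the side of CMP/GMP, and LT-HSC lay between MEP and ST-HSC.

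Slamf1, which encodes a receptor of the signalling lymphocyte activation family, also did not overlap between the populations. Its levels were 35.8, 72.7 and 84.6 CPM in LT-HSC and 4.92, 19 and 28.5 CPM in ST-HSC. The log2 fold change of 1.97 (SE 0.39, edgeR adjusted p = 0.0634) missed the threshold of 0.05. Without the 3 columns that stood apart it was 2.23 (edgeR adjusted p = 0.0206), and with a term for sex 2.02 (edgeR adjusted p = 0.0469). The lowest 2 LT-HSC columns, at 35.8 and 36.2 CPM, were LT-HSC WT 1 and LT-HSC Dnmt3a KO 2. In CMP/GMP WT Slamf1 was at 1.13, 1.49 and 3.72 CPM and in MEP WT at 2.67, 3.44 and 7.86 CPM.

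Procr encodes the endothelial protein C receptor. It was at 14.7, 109 and 185 CPM in LT-HSC and 61.5, 126 and 203 CPM in ST-HSC. The ranges overlapped over most of their width, and the log2 fold change was -0.30 (SE 0.34, edgeR adjusted p = 0.9997). Both populations had far more of it than CMP/GMP WT, with 1.2, 4.42 and 5.22 CPM, or MEP WT, with 0, 0 and 0.0724 CPM. Cd48 encodes a ligand of the receptor CD244. It was at 0.0839, 3.81 and 50.8 CPM in LT-HSC and 2.58, 14.6 and 26.6 CPM in ST-HSC. Its log2 fold change was -0.72 (SE 0.90, edgeR adjusted p = 0.9997), and -2.23 (edgeR adjusted p = 0.567) without the 3 columns. The highest LT-HSC column, at 50.8 CPM, was LT-HSC WT 1. The next was at 8.80 CPM, so a single column set the upper end of the LT-HSC range. In CMP/GMP WT Cd48 was at 185, 246 and 283 CPM, above both stem cell populations.

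Kit, the stem cell factor receptor, was present in all 16 columns. It was at 189, 549 and 691 CPM in LT-HSC and 417, 540.1 and 711 CPM in ST-HSC, with a log2 fold change of -0.092 (edgeR adjusted p = 0.9997). Its ranges overlapped between the populations. Ly6a, which encodes SCA-1, was at 78.3, 148 and 238 CPM in LT-HSC and 122, 236 and 346 CPM in ST-HSC. Its log2 fold change was -0.73 (SE 0.24, edgeR adjusted p = 0.557), not past the threshold. In CMP/GMP WT, Ly6a was at 0.652, 2.43 and 8.91 CPM, so both stem cell populations carried the SCA-1 transcript that these progenitors nearly lacked.

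Dnmt3a, the gene of the targeted DNA methyltransferase, was at 42.6, 63.2 and 115 CPM in the 4 LT-HSC KO columns and 76.8, 104 and 243 CPM in the 4 LT-HSC WT columns. These ranges overlapped. The counts cover the whole gene, and the labels at hand do not say which part was deleted. In the 8 ST-HSC columns Dnmt3a was at 33.4, 70.7 and 128 CPM, with no gap that would sort them by genotype. The log2 fold change between the populations was 0.47 (SE 0.33, edgeR adjusted p = 0.9997). It was 0.073 without the 3 columns that stood apart, among them LT-HSC WT 1, the highest at 243 CPM. With only LT-HSC WT it was 0.85, and with only LT-HSC KO -0.045.

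**Figure D1:**
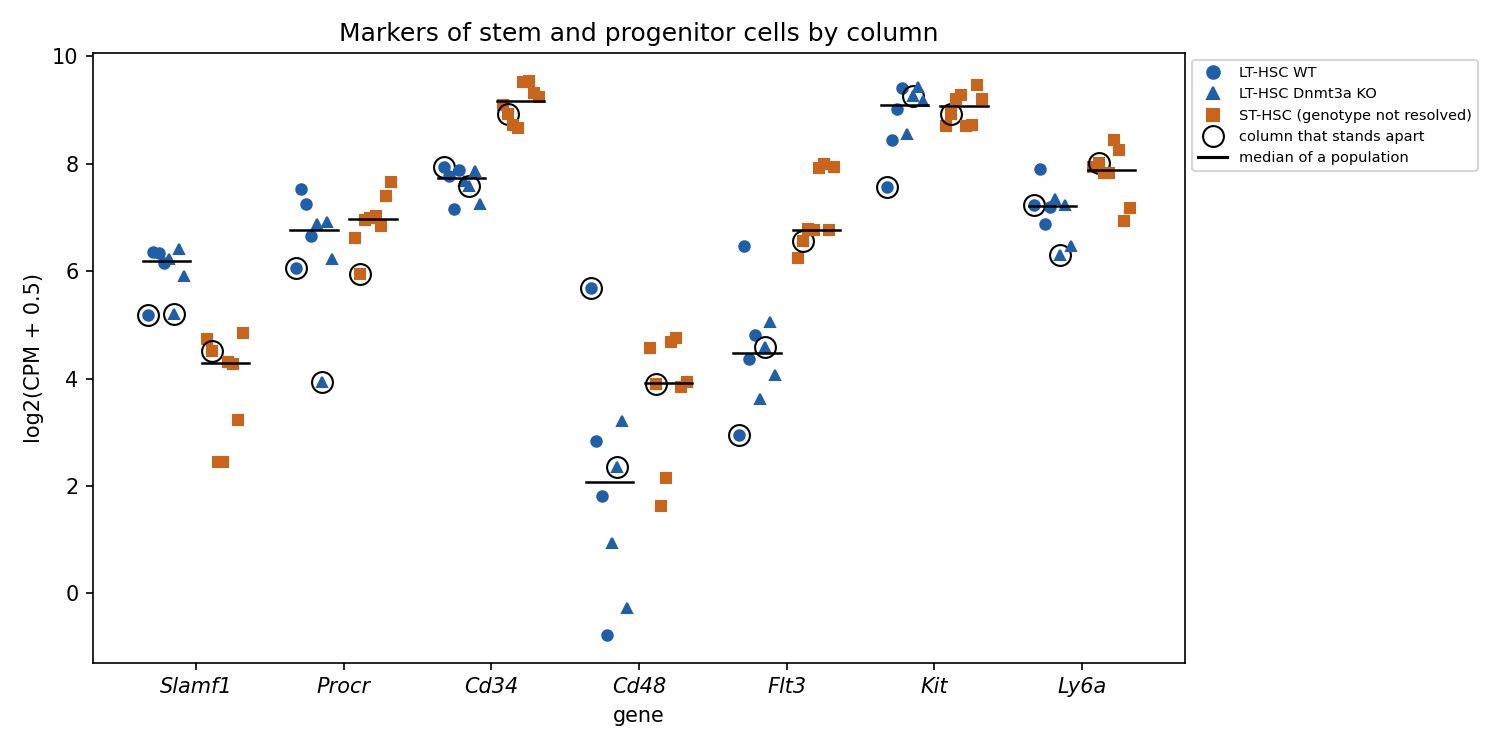
Levels of 7 marker genes in each of the 16 columns, as log2(CPM + 0.5), with LT-HSC WT as blue circles, LT-HSC Dnmt3a KO as blue triangles and ST-HSC as orange squares. Bars are medians of 8 columns and open rings mark the 3 columns that stand apart. The populations separate fully for Cd34 and Slamf1, while Procr, Cd48, Flt3, Kit and Ly6a overlap.

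Across all genes, 9 of 12707 tested genes passed the test in edgeR's quasi-likelihood fit (0.0708%). Of these, 3 were higher in LT-HSC (0.0236%) and 6 were higher in ST-HSC (0.0472%). At an unadjusted p under 0.05 there were 735 genes (5.78%), 426 with the higher estimate in LT-HSC (3.35%) and 309 in ST-HSC (2.43%). The number of calls depended on the tool, with 135 genes higher in LT-HSC (0.849%) and 87 higher in ST-HSC (0.547%) by DESeq2. By limma-voom with quality weights there were 359 (2.83%) and 162 (1.27%). The counts of list members given below are to be read beside these shares of all genes. Members of a list were measured in the same columns and may vary together, so such counts are not counts of separate results. The limma-voom fit gave its largest weights, 4.43 and 4.87, to the near-identical ST-HSC columns C and D. With C and D summed, edgeR called 4 of 12896 genes (0.031%), namely Cd34, Ctla2a, Rgs1 and Sdpr. The same 4 genes kept their call when any single column was left out. Without the 3 columns that stood apart, edgeR called 14 genes higher in LT-HSC (0.107%) and 18 higher in ST-HSC (0.137%) among 13132. With C and D also summed, it called 7 higher in LT-HSC and 12 higher in ST-HSC among 12958.

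The genes higher in ST-HSC were Cd34, Flt3, Ctla2a, Rgs1, Rgs2 and Lat2. Cd34 lies at chr1:194938821-194961292 on GRCm38.p6, the assembly of all positions given. Flt3 (chr5:147330741-147400489), the receptor for FLT3 ligand and a mark of multipotent and lymphoid-primed progenitors, was at 7.18, 21.8 and 87.9 CPM in LT-HSC and 75.4, 109 and 253 CPM in ST-HSC. The log2 fold change of Flt3 was -2.44 (SE 0.44, edgeR adjusted p = 0.0395). A single LT-HSC column, WT 2 at 87.9 CPM, lay above the lowest ST-HSC column, and the other 7 were at or below 32.9 CPM. The Flt3 call was lost with C and D summed (edgeR adjusted p = 0.0543) and in 10 of the 16 fits that left out 1 column (highest edgeR adjusted p = 0.0951).

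Rgs1 and Rgs2 encode regulators of G-protein signalling, which shorten the signal of G-protein-coupled receptors. They are neighbours on chromosome 1. Rgs1 (chr1:144244669-144249104) was at 981, 1570.2 and 2371 CPM in LT-HSC and 2468, 3248 and 4474 CPM in ST-HSC, with a log2 fold change of -1.11 (SE 0.18, edgeR adjusted p = 0.0154). Rgs2 (chr1:143999338-144004149) was at 186, 407 and 481 CPM and 531, 719 and 1027 CPM, with a log2 fold change of -1.08 (SE 0.20, edgeR adjusted p = 0.0417). Neither gene overlapped between the populations. Rgs2 was not called with C and D summed (edgeR adjusted p = 0.105), nor in 12 of the 16 fits that left out 1 column (highest edgeR adjusted p = 0.115).

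Ctla2a encodes a protein related to the propeptide of cathepsins. Ctla2a (chr13:60934155-60936625) was at 1068, 1471 and 1735 CPM in LT-HSC and 2217, 2726 and 3673 CPM in ST-HSC, again without overlap. Its log2 fold change was -1.03 (SE 0.14, edgeR adjusted p = 0.00311). Its close copy Ctla2b was at 59.1, 196 and 329 CPM and 290.1, 393 and 521 CPM, with a log2 fold change of -1.02 (SE 0.26, edgeR adjusted p = 0.227). Reads of the 2 copies may be split by the authors' counting, so the value of each is uncertain. Lat2 (chr5:134600103-134619783), an adaptor of immune receptor signalling, was at 0.768, 8.58 and 19.3 CPM in LT-HSC and 30.9, 49.9 and 62.2 CPM in ST-HSC, with no overlap. Its log2 fold change was -2.36 (SE 0.44, edgeR adjusted p = 0.0417). The lowest LT-HSC column, at 0.768 CPM, was LT-HSC Dnmt3a KO 2. The Lat2 call was lost with C and D summed (edgeR adjusted p = 0.106) and in 13 of the 16 fits without 1 column (highest edgeR adjusted p = 0.113).

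The genes higher in LT-HSC were Pf4, Sdpr and Mt1. Pf4 (chr5:90772435-90773383) encodes platelet factor 4, a chemokine of megakaryocytes and platelets. It was at 85.6, 124 and 2323 CPM in LT-HSC and 5.62, 17.1 and 50.2 CPM in ST-HSC, without overlap. The log2 fold change of Pf4 was 4.12 (SE 0.76, edgeR adjusted p = 0.0416). The highest column, LT-HSC WT 1, stood far above the next at 248 CPM. Without LT-HSC WT 1 the log2 fold change of Pf4 was 2.49 (edgeR adjusted p = 0.0186), and without all 3 columns it was 2.82 (edgeR adjusted p = 0.00639). With C and D summed the Pf4 call was lost (edgeR adjusted p = 0.106), as in 10 of the 16 fits without 1 column (highest edgeR adjusted p = 0.113).

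Sdpr, now named Cavin2 (chr1:51289126-51302960), encodes a coat protein of caveolae. It was at 37.5, 144 and 269.5 CPM in LT-HSC and 7.30, 9.62 and 48 CPM in ST-HSC. For Sdpr the log2 fold change was 2.94 (SE 0.48, edgeR adjusted p = 0.0154). The overlap came from LT-HSC Dnmt3a KO 3, at 37.5 CPM, and ST-HSC B, at 48 CPM. Mt1 (chr8:94178883-94180327) encodes metallothionein 1, a zinc- and copper-binding protein. It was at 89.3, 149 and 279 CPM in LT-HSC and 27.0, 55.7 and 78.0 CPM in ST-HSC, without overlap, with a log2 fold change of 1.56 (SE 0.28, edgeR adjusted p = 0.0416). Mt1 was not called without the 3 columns that stood apart (log2 fold change 1.25, edgeR adjusted p = 0.0766), with C and D summed (edgeR adjusted p = 0.0543) or in 12 of the 16 fits without 1 column (highest edgeR adjusted p = 0.105). In MEP WT Mt1 was at 858, 935 and 989 CPM, above both stem cell populations.

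All 9 genes kept their direction within the columns of each sex and for either LT-HSC genotype against all ST-HSC columns. They were chosen by the test on these same columns, and all but Flt3 and Sdpr did not overlap. Their direction in parts of the columns was thus largely fixed in advance and is no separate support. With only the 4 and 4 columns with Y-linked transcripts, the log2 fold change was -1.56 for Cd34, -2.35 for Flt3, 4.23 for Pf4 and 2.50 for Sdpr. With only the 4 and 4 columns with Xist, these were -1.43, -2.55, 3.72 and 3.92 in the same order. For Ctla2a, Rgs1, Rgs2, Lat2 and Mt1 they were -1.12, -1.22, -1.04, -1.90 and 1.89 with Y-linked transcripts and -0.93, -0.98, -1.10, -2.83 and 1.22 with Xist. The Y-linked columns alone gave 0 calls by edgeR, with 362 genes at an unadjusted p under 0.05, and the Xist columns alone gave 27 (0.207%). All 3 columns that stood apart were among the Y-linked columns, so these 2 fits differ in more than sex. A further test over all 12707 genes asked whether the difference between the populations itself differed between the sexes (population by sex). There edgeR called 0 genes, with 499 at an unadjusted p under 0.05. With the 4 WT columns as the LT-HSC side, Cd34 had a log2 fold change of -1.45, Flt3 -2.11 and Pf4 4.86. With the 4 KO columns the values were -1.57, -2.88 and 2.47. The comparison with the WT columns gave 0 calls by edgeR, with 705 genes at an unadjusted p under 0.05, and that with the KO columns gave 3 (0.0214%), Cd34, Flt3 and Ctla2a.

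**Figure D2:**
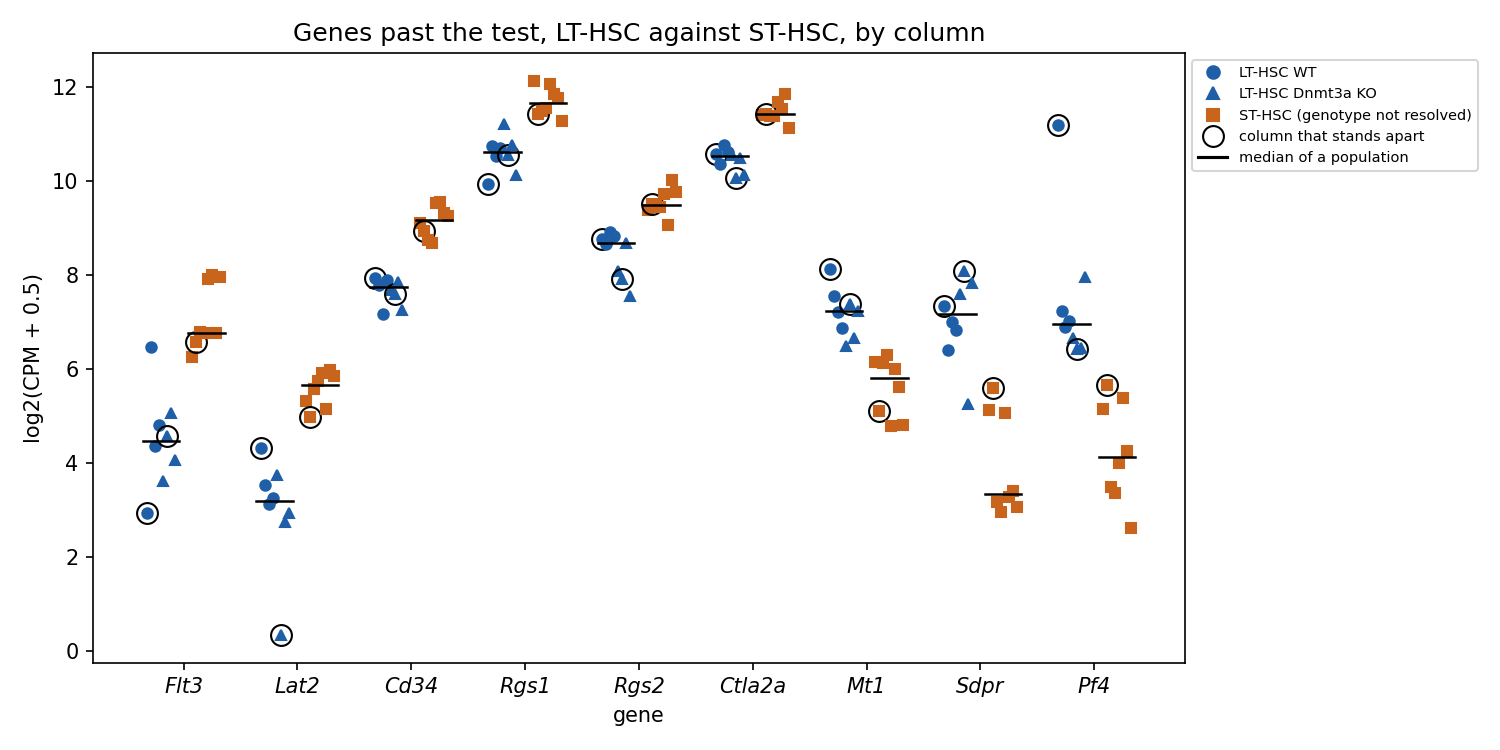
Levels of the 9 genes that passed the test, in each of the 16 columns, as log2(CPM + 0.5), ordered from the most negative to the most positive log2 fold change. Symbols, bars and rings stand for LT-HSC WT, LT-HSC Dnmt3a KO, ST-HSC, population medians and columns that stand apart. Only Flt3 and Sdpr overlap between the populations, and LT-HSC WT 1 carries 2323 CPM of Pf4.

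Full separation of the 8 and 8 columns was seen for 14 genes with LT-HSC above (0.11%) and 14 with ST-HSC above (0.11%). These genes, and those below that were called without the 3 columns, were chosen after their values were seen. On the LT-HSC side they hold Mt1, Pf4, Slamf1, 3 genes of mitosis described below, and Gstm2, Mfsd2b, Cd38, Bex4, Dbf4 and Ehd3. Mfsd2b, the sphingosine-1-phosphate exporter of red cells and platelets, was at 45.2, 87.0 and 134 CPM in LT-HSC and 0.164, 8.85 and 42.3 CPM in ST-HSC (log2 fold change 2.58, SE 0.62, edgeR adjusted p = 0.19). Cd38, an NAD-cleaving surface enzyme, was at 17.6, 25.6 and 46.8 CPM and 0, 3.28 and 8.49 CPM (log2 fold change 2.88, SE 1.04, edgeR adjusted p = 0.657). Gstm2, a glutathione transferase, was at 19.7, 32.1 and 49.7 CPM and 3.36, 10.2 and 17.1 CPM (log2 fold change 1.78, SE 0.40, edgeR adjusted p = 0.124). None of these 3 passed the test. On the ST-HSC side, besides Cd34, Ctla2a, Rgs1, Rgs2 and Lat2, the groups of S1pr1 and Adgrl4 did not overlap. S1pr1, the receptor for sphingosine-1-phosphate that guides exit into blood, was at 51.1, 87.5 and 114 CPM in LT-HSC and 119.7, 171 and 181 CPM in ST-HSC (log2 fold change -0.86, SE 0.19, edgeR adjusted p = 0.124). Adgrl4, an adhesion G-protein-coupled receptor of endothelial and stem cells, was at 358, 460.0 and 597 CPM and 611, 745 and 991 CPM (log2 fold change -0.65, SE 0.15, edgeR adjusted p = 0.138). With a term for sex edgeR called Adgrl4 (log2 fold change -0.65, edgeR adjusted p = 0.0469).

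Without the 3 columns that stood apart, the genes called higher in LT-HSC also held Slamf1, Gata2, Fhl1, Mmrn1, Mki67, Cdc20 and Ccnb1. Gata2, a transcription factor needed by stem cells, then had a log2 fold change of 0.71 (edgeR adjusted p = 0.0374). With C and D also summed, Cdc20 and Ccnb1 lost the call, as did Gata2 (log2 fold change 0.68, edgeR adjusted p = 0.0912). Over all 16 columns Gata2 was at 337, 666 and 891 CPM in LT-HSC and 366, 447 and 516 CPM in ST-HSC (log2 fold change 0.57, SE 0.17, edgeR adjusted p = 0.429). Those called higher in ST-HSC also held Cd27, Cd37, Plac8, Emb, Ccl4, S1pr1 and Gm2a. Cd27, a receptor of the tumour necrosis factor family, had a log2 fold change of -0.88 (edgeR adjusted p = 0.0341). Plac8, a gene of early myeloid and lymphoid progenitors, had -1.81 (edgeR adjusted p = 0.0118), against -0.09 over all 16 columns. With C and D also summed, Cd27 (edgeR adjusted p = 0.0559) and Cd37 (edgeR adjusted p = 0.0691) lost the call. In LT-HSC WT 1, 1 of the 3 columns, Plac8 was at 1119.5 CPM, against an LT-HSC median of 74.1 CPM.

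**Figure D3:**
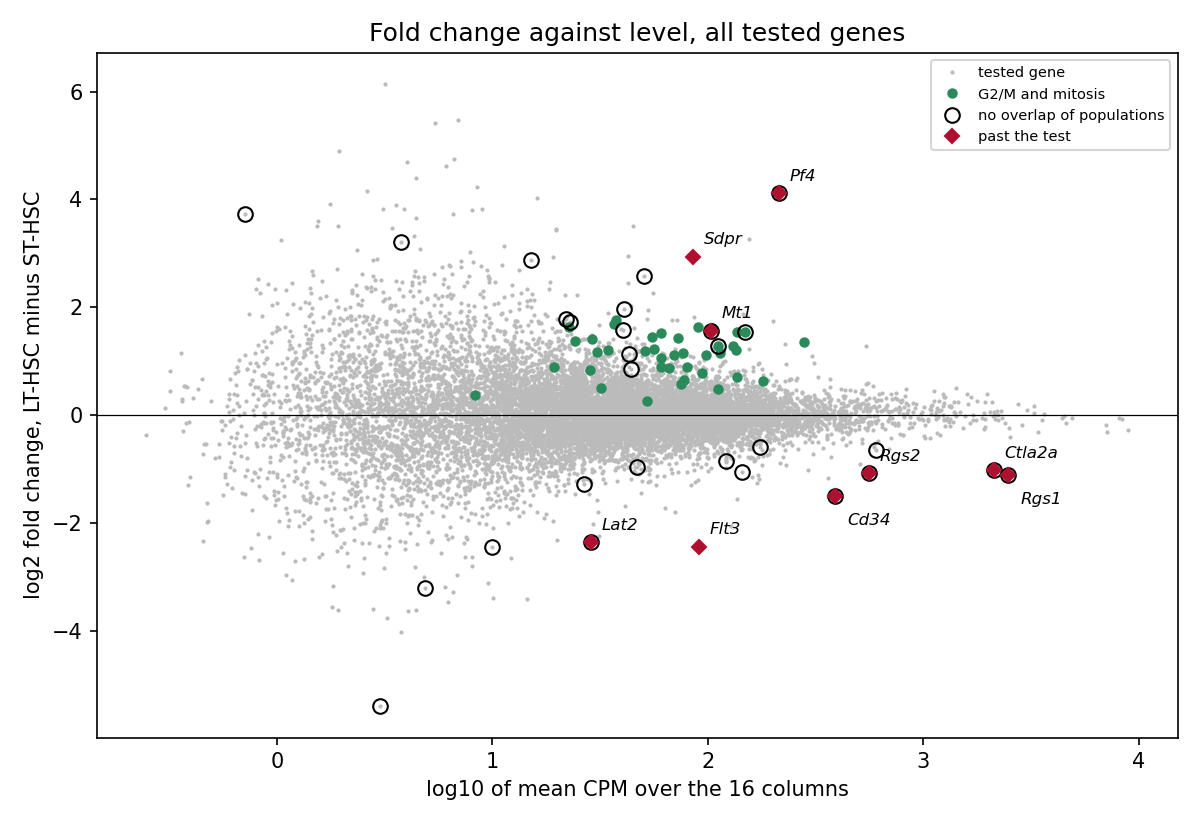
Log2 fold change, LT-HSC minus ST-HSC, against the log10 of the mean CPM over the 16 columns for the 12707 tested genes. Red diamonds are the 9 genes past the test, open circles the 28 genes whose populations do not overlap and green points the 39 tested genes of the G2/M list, which all lie above 0.

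Genes of G2/M and mitosis all lay on the LT-HSC side. These genes build and police the mitotic spindle and drive entry into and exit from division. All 39 of the 40 listed genes that were tested had a positive log2 fold change, with a median of 1.17, while 51.4% of all tested genes were positive, with a median of 0.014. None passed the edgeR test at an adjusted p of 0.05, and 31 had an unadjusted p under 0.05. DESeq2 called 11 of them and limma-voom 14, in each case higher in LT-HSC. Of all tested genes, 3.35% had an unadjusted p under 0.05 with the higher estimate in LT-HSC. DESeq2 called 0.849% and limma-voom 2.83% of all genes higher in LT-HSC. Without the 3 columns that stood apart edgeR called 3 (Mki67, Cdc20 and Ccnb1) and the median was 1.01. With C and D also summed, Cdc20 (edgeR adjusted p = 0.0725) and Ccnb1 (edgeR adjusted p = 0.0833) lost the call. With a term for sex, the calls of edgeR over all columns included Ube2c (edgeR adjusted p = 0.0101) and Mki67 (edgeR adjusted p = 0.0411). The list median was 1.24 with only Y-linked columns, 0.97 with only Xist columns, 1.001 with only LT-HSC WT and 1.27 with only LT-HSC KO. In the fit with only LT-HSC WT 37 of the 39 were positive, and with only Y-linked columns 38. All members were measured in the same columns, and how far they vary together was not tested. The 39 signs are therefore not 39 separate results, and their share beside that of all genes is no test. The fits on parts of the columns reuse columns of the main fit, so the same direction there is no separate support.

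Many genes of this list share a sequence in their promoter, the cell cycle genes homology region (CHR), through which the DREAM and MuvB complexes act. Its core was searched as TTTGAA on either strand, from 250 bases before to 50 after the RefSeq start (GRCm38.p6). It was found in 28 of 37 promoters of 35 matched G2/M genes (75.7%), in 4 of 38 promoters of 31 matched G1/S genes (10.5%) and in 17.9% of all 32851 promoters. CCAAT was found in 78.4%, 55.3% and 37.4% of the same sets. The E2F motifs TTTCCCGC and TTTGGCGC were found in 0 of 37, 23.7% and 1.56%. All were searched on both strands, and overlaps between motifs were not removed. A match says only that these letters are present. Shown here are the 150 bases before the start of the first 4 G2/M genes by p-value that hold the core in that stretch, chosen after their values were seen, because their levels are described next. Capitals mark TTTGAA, or TTCAAA where it lies on the other strand. The 4 stretches are Ube2c at chr2:164769779-164769928 (+ strand), Mki67 at chr7:135716380-135716529 (- strand), Kif11 at chr19:37376232-37376381 (+ strand) and Cdk1 at chr10:69352913-69353062 (- strand).
Ube2c: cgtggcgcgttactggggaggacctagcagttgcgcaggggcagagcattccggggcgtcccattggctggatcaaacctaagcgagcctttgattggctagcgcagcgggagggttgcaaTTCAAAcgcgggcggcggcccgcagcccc
Mki67: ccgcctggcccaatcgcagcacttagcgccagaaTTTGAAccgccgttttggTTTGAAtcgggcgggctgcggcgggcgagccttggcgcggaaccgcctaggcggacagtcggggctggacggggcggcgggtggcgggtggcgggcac
Kif11: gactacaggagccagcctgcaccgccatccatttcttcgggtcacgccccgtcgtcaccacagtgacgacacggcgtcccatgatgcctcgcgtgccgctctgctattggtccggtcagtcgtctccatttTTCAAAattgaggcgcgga
Cdk1: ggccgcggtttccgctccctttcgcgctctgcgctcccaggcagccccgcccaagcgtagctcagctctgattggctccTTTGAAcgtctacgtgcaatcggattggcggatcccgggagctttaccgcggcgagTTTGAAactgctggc

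Ube2c, the E2 enzyme of the anaphase-promoting complex, did not overlap between the populations. It was at 137, 216 and 333 CPM in LT-HSC and 14.8, 80.2 and 108 CPM in ST-HSC (log2 fold change 1.54, SE 0.30, edgeR adjusted p = 0.0577). In CMP/GMP WT it was at 203, 249 and 256 CPM, a range that the LT-HSC columns spanned. Ccnb1, the mitotic cyclin B1, did not overlap either, with 93.4, 139 and 296 CPM and 26.3, 73.6 and 84.0 CPM (log2 fold change 1.28, SE 0.27, edgeR adjusted p = 0.103). Nor did Troap, a spindle protein outside the list, with 20.9, 29.0 and 74.2 CPM and 4.51, 10.7 and 16 CPM (log2 fold change 1.73, SE 0.38, edgeR adjusted p = 0.124). For the other genes the ranges overlapped.

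Mki67, the proliferation marker Ki-67, was at 65.5, 166 and 408 CPM in LT-HSC and 43.8, 51.4 and 166 CPM in ST-HSC (log2 fold change 1.54, SE 0.35, edgeR adjusted p = 0.124). Kif11, a spindle motor, was at 40.4, 92.8 and 197 CPM and 16.5, 36.5 and 68.4 CPM (log2 fold change 1.43, SE 0.37, edgeR adjusted p = 0.239). Cdk1, the kinase that starts mitosis, was at 67.4, 187 and 327 CPM and 20.3, 72.2 and 117 CPM (log2 fold change 1.27, SE 0.33, edgeR adjusted p = 0.243). In all 3 the LT-HSC median was above the ST-HSC median by more than 2-fold. Top2a and Cks2 were the most abundant of the list. Top2a, which untangles sister chromatids, was at 75.6, 311 and 857 CPM in LT-HSC and 52.8, 141 and 294 CPM in ST-HSC (log2 fold change 1.36, SE 0.39, edgeR adjusted p = 0.331). Cks2, a partner of Cdk1, was at 116, 206 and 322 CPM and 75.8, 158 and 185 CPM (log2 fold change 0.63, SE 0.24, edgeR adjusted p = 0.713). The smallest log2 fold changes of the list were those of Kif23 (0.27) and Kif20a (0.38), 2 motors of cytokinesis.

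By column, the mean log2 level of the G2/M list relative to the ST-HSC mean ranged from 0.079 to 1.86 in LT-HSC and from -1.35 to 0.66 in ST-HSC. LT-HSC WT 3, at 0.079, lay inside the ST-HSC range, and the other 7 LT-HSC columns lay above it. ST-HSC G was the lowest of all columns. The summed level of the list was 818 CPM in ST-HSC G and 1790 to 2608 CPM in the other ST-HSC columns, against 1921 to 6131 CPM in LT-HSC.

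Genes of G1/S and DNA replication had smaller values. Of 40 tested, 29 were positive, with a median of 0.20, and none was called by edgeR or DESeq2, with 4 at an unadjusted p under 0.05 and 4 called by limma-voom. This median changed sign between the 2 sets of columns, at -0.091 with only Y-linked columns, which hold all 3 that stood apart, and 0.61 with only Xist columns. Uhrf1, which couples replication to DNA methylation, was at 76.8, 161 and 304 CPM in LT-HSC and 48.6, 77.9 and 193 CPM in ST-HSC (log2 fold change 0.74, SE 0.31, edgeR adjusted p = 0.779). The abundant G1 kinases Cdk6 and Cdk4 had log2 fold changes of -0.15 (edgeR adjusted p = 0.9997) and -0.12 (edgeR adjusted p = 0.9997). Inhibitors of the cycle and genes linked to quiescence had a median of 0.042, with 11 of 17 positive, none called by edgeR or DESeq2, 1 at an unadjusted p under 0.05 and 2 called by limma-voom. That median was -0.16 without the 3 columns and 0.22 by limma-voom. Ndn, the imprinted gene of necdin, was at 40.2, 94.9 and 155 CPM in LT-HSC and 14.4, 39.3 and 118 CPM in ST-HSC (log2 fold change 1.01, SE 0.38, edgeR adjusted p = 0.704).

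Most megakaryocyte and platelet genes also had a higher estimate in LT-HSC. Of 26 tested genes of 29, 23 were positive, with a median of 0.90, and 1, Pf4, was called. DESeq2 called 6 and limma-voom 7, all higher in LT-HSC. Vwf, the von Willebrand factor, was at 15.4, 66.7 and 139 CPM in LT-HSC and 0, 5.24 and 23.4 CPM in ST-HSC (log2 fold change 2.95, SE 0.71, edgeR adjusted p = 0.19). Itga2b, the platelet integrin CD41, was at 103, 217 and 399 CPM and 47.9, 89.6 and 268 CPM (log2 fold change 0.96, SE 0.34, edgeR adjusted p = 0.633). Gp9, a subunit of the platelet receptor for von Willebrand factor, was at 9.66, 97.2 and 146 CPM and 12.7, 29.9 and 52.7 CPM (log2 fold change 1.48, SE 0.47, edgeR adjusted p = 0.504). The ranges of these 3 overlapped. Mmrn1, multimerin of platelet granules, was at 101, 191 and 294 CPM and 80.7, 109 and 168 CPM, and was called without the 3 columns (log2 fold change 1.001, edgeR adjusted p = 0.0384). Thbs1 (-2.24), Gp5 (-0.74) and Nfe2 (-0.27) were the 3 with a negative log2 fold change.

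By column, the mean log2 level of the megakaryocyte list was 0.55 to 1.73 in LT-HSC and -0.43 to 0.46 in ST-HSC, without overlap. Its summed level was 3039, 3759 and 5712 CPM in LT-HSC and 2289.5, 2587 and 3200.4 CPM in ST-HSC at the lowest, median and highest. The highest LT-HSC column was WT 1, the column with the highest Pf4. Its part in the list's level was not tested beyond the fit without it. All 3 defining genes, Pf4, Itga2b and Gp9, had reads in all 16 columns. In such bulk libraries, more cells that express a gene and more RNA per cell cannot be told apart.

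Erythroid genes had a median of 0.86, with 16 of 19 tested positive and none called by edgeR, DESeq2 or limma-voom, with 4 at an unadjusted p under 0.05. The median was 0.39 with only Xist columns and 0.53 by limma-voom. Their levels differed widely within each population. Car1, carbonic anhydrase 1, was at 1.06, 237 and 923 CPM in LT-HSC and 0.082, 11.1 and 155 CPM in ST-HSC (log2 fold change 3.27, SE 1.15, edgeR adjusted p = 0.633). Klf1, the master regulator of red cell genes, was at 0.211, 40.3 and 127 CPM and 0, 5.73 and 38.7 CPM (log2 fold change 1.89, SE 1.01, edgeR adjusted p = 0.923). By column, the list ranged from -0.93 to 1.75 in LT-HSC and from -0.75 to 1.36 in ST-HSC. LT-HSC WT 1 was the lowest of all. The defining gene Hbb-bs did not pass 38.7 CPM in any column. The most abundant members were Car2, with a log2 fold change of 0.34 (edgeR adjusted p = 0.9997), and Nfe2.

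Of 38 tested genes known to mark LT-HSC, 27 were positive, with a median of 0.50, and none was called. At an unadjusted p under 0.05, 11 were higher in LT-HSC and 1 in ST-HSC, and DESeq2 called 5 and limma-voom 7, all higher in LT-HSC. The median was 0.31 by DESeq2, 0.27 by limma-voom, 0.31 with only LT-HSC WT, 0.29 with only LT-HSC KO and 0.33 with only Xist columns. Sult1a1, a sulfotransferase, was at 70.9, 213 and 472 CPM in LT-HSC and 25.2, 52.8 and 129 CPM in ST-HSC (log2 fold change 1.88, SE 0.38, edgeR adjusted p = 0.065). Gda, guanine deaminase, was at 15.1, 49.8 and 363 CPM and 3.21, 14.3 and 53.9 CPM (log2 fold change 2.26, SE 0.61, edgeR adjusted p = 0.283). Fhl1, a LIM domain protein, was at 5.12, 75.7 and 92.8 CPM and 20.6, 24.5 and 37.1 CPM. LT-HSC Dnmt3a KO 2, at 5.12 CPM, was the 1 LT-HSC column inside or below the ST-HSC range, and without the 3 columns Fhl1 was called (log2 fold change 1.46, edgeR adjusted p = 0.00286). Other members had values near 0 or below, among them Mecom (0.24), Hlf (-0.38), Hoxb5 (-0.27), Fgd5 (-0.014) and Esam (0.072). The most abundant, Txnip, was at -0.16 (edgeR adjusted p = 0.9997).

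Transcription factors of stem cells had a median of 0.17, with 21 of 33 positive and none called by edgeR. At an unadjusted p under 0.05, 6 were higher in LT-HSC and 2 in ST-HSC. DESeq2 called 3, all higher in LT-HSC, and limma-voom called 5 higher in LT-HSC and 2 higher in ST-HSC. Gata2, described above, had a log2 fold change of 0.57 (edgeR adjusted p = 0.429). The median was 0.05 with only LT-HSC WT, 0.087 with only LT-HSC KO, 0.094 with only Y-linked columns and 0.07 by limma-voom. Hoxa9, a homeobox factor of stem and progenitor cells, was at 45.8, 84.8 and 174 CPM in LT-HSC and 120.0, 149 and 187 CPM in ST-HSC (log2 fold change -0.67, SE 0.23, edgeR adjusted p = 0.605). Meis1 (-0.0057) and Hoxb4 (0.01) were among those nearest to 0. Of the most abundant, Zfp36 had -0.31 (edgeR adjusted p = 0.9997) and Nr4a1 -0.25 (edgeR adjusted p = 0.9997).

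Genes of multipotent progenitors lay on the ST-HSC side. Of 22 tested, 4 were positive, the median was -0.89, and 2, Cd34 and Flt3, were called. Without the 3 columns 5 were called and the median was -1.73. It was -1.72 by limma-voom, -0.57 with only LT-HSC WT and -1.56 with only Xist columns. Cd53, a tetraspanin of blood cells, was at 5.86, 75.6 and 136 CPM in LT-HSC and 121, 181 and 332 CPM in ST-HSC (log2 fold change -1.55, SE 0.46, edgeR adjusted p = 0.382). By column, the list was at -2.20 to -0.11 in LT-HSC and -0.44 to 0.89 in ST-HSC. The overlap came from LT-HSC WT 1, and the other 7 LT-HSC columns were at or below -0.75, under the lowest ST-HSC column. In LT-HSC WT 1, the same column as above, Mpo was at 1461 CPM, against a median of 28.2 CPM in LT-HSC and 165 CPM in ST-HSC.

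Lymphoid priming genes had a median of -0.57, with 4 of 16 tested positive, and 1, Flt3, called. DESeq2 called 1 member higher in LT-HSC and 2 higher in ST-HSC, limma-voom called 5 higher in ST-HSC, and edgeR called 0 with C and D summed. By column they did not overlap, at -1.36 to -0.38 in LT-HSC and -0.31 to 0.49 in ST-HSC. Ikzf1, a lymphoid transcription factor, was at 97.7, 153 and 168 CPM in LT-HSC and 137, 189.7 and 250.1 CPM in ST-HSC (log2 fold change -0.43, SE 0.18, edgeR adjusted p = 0.794). Dntt, the terminal transferase of early lymphocytes, had a log2 fold change of -0.66 (edgeR adjusted p = 0.9997). Gpr183, a chemotactic receptor, had a fold change of opposite sign, with 0.217, 12.3 and 34.1 CPM and 0, 1.78 and 5.63 CPM (log2 fold change 2.83, SE 0.98, edgeR adjusted p = 0.605). The median of the list was -0.15 with only Y-linked columns, -0.70 with only Xist columns, -0.32 with only LT-HSC WT and -1.06 with only LT-HSC KO. By DESeq2 it was -0.36.

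Granulocyte genes were tested for 9 of 19 members, with 2 positive, a median of -0.97 and none called. 1 had an unadjusted p under 0.05, DESeq2 called 1 in each direction and limma-voom 1 higher in ST-HSC. Their median was -2.12 without the 3 columns, -0.45 with only LT-HSC WT and -0.13 with only Y-linked columns, where 4 of 9 were positive. Csf3r, the G-CSF receptor, was at 52.5, 80.5 and 177 CPM in LT-HSC and 91.8, 226 and 329.7 CPM in ST-HSC (log2 fold change -1.15, SE 0.29, edgeR adjusted p = 0.227). Prtn3, a granule protease, was at 323, 373 and 1054 CPM and 363, 443 and 962 CPM (log2 fold change -0.27, SE 0.26, edgeR adjusted p = 0.9997). Elane, neutrophil elastase, had medians of 1.15 and 3.30 CPM but reached 636 CPM in LT-HSC and 658 CPM in ST-HSC. The myeloid transcription factors and receptors had a median of -0.36, with 6 of 16 positive and none called by edgeR, while DESeq2 called 3 and limma-voom 5, all higher in ST-HSC. Their median was -0.89 without the 3 columns, -1.16 by limma-voom and -0.92 with only Xist columns. Spi1, the myeloid and lymphoid factor PU.1, was at 32.5, 140.1 and 211 CPM in LT-HSC and 141, 196 and 324 CPM in ST-HSC (log2 fold change -0.83, SE 0.33, edgeR adjusted p = 0.743). Klf6 was at 583, 851 and 1394 CPM and 904, 1280.5 and 1523 CPM (log2 fold change -0.43, SE 0.18, edgeR adjusted p = 0.774).

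Genes of antigen presentation by MHC class II had a median of -0.69, with 1 of 10 tested positive and none called by edgeR or DESeq2, with 4 at an unadjusted p under 0.05 and 1 called by limma-voom. The median was -0.44 with only LT-HSC WT. H2-DMa, which helps load peptides, was at 36.5, 159 and 248 CPM in LT-HSC and 194, 289 and 431 CPM in ST-HSC (log2 fold change -0.89, SE 0.28, edgeR adjusted p = 0.492). H2-Aa had a log2 fold change of -0.50 (edgeR adjusted p = 0.896), and H2-Eb1 was at -0.0056. H2 genes are near-identical copies in part, so single values are uncertain. MHC class I and antigen processing genes had a median of -0.17, with B2m at -0.15 and H2-K1 at -0.094, none called by any of the 3 tools and 0 at an unadjusted p under 0.05. This median changed sign between column sets, at -0.36 with only Y-linked columns, which hold all 3 that stood apart, and 0.07 with only Xist columns. Interferon-stimulated genes had a median of -0.28, with 10 of 46 positive and none called by edgeR. At an unadjusted p under 0.05 there were 5, and DESeq2 called 1 and limma-voom 3, all higher in ST-HSC. Oas2, a sensor of double-stranded RNA, was at 0, 2.50 and 5.62 CPM in LT-HSC and 4.37, 30.8 and 41.4 CPM in ST-HSC (log2 fold change -3.41, SE 0.97, edgeR adjusted p = 0.317). Rtp4 was at 8.87, 37.8 and 54.3 CPM and 44.1, 68.6 and 125 CPM (log2 fold change -1.22, SE 0.38, edgeR adjusted p = 0.469). The abundant Ly6e and Ifitm1 had log2 fold changes of -0.14 and -0.34.

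The lists of receptors, signalling pathways and chromatin had medians between -0.21 and 0.16, and that of the Notch and Wnt genes was -0.25 by limma-voom and -0.11 without the 3 columns. The Notch and Wnt median was 0.30 with only Y-linked columns and -0.40 with only Xist columns. Cytokine and growth factor receptors had -0.21, with Flt3 the 1 called, and Ifnar1, a chain of the type I interferon receptor, at 33.8, 64.1 and 85.2 CPM in LT-HSC and 62.0, 107 and 141 CPM in ST-HSC (log2 fold change -0.75, SE 0.24, edgeR adjusted p = 0.52). Adhesion, homing and niche genes had 0.072, with Selplg, a selectin ligand, at 69.8, 104 and 185 CPM and 122, 205 and 235 CPM (log2 fold change -0.78, SE 0.22, edgeR adjusted p = 0.314), and the abundant Adgrg1 at 0.001 and Angpt1 at 0.20. TGF-beta and BMP genes had 0.11 (Eng -0.028, Skil 0.11) and Notch and Wnt genes 0.16 (Ctnnb1 0.39, Notch2 0.18). The DNA methylation machinery had 0.093 (Dnmt1 0.13, Idh2 -0.27), imprinted genes 0.036 (Kcnq1ot1 0.33, Gnas 0.27) and p53 targets 0.11 (Cdkn1a -0.25, Mdm2 -0.29). Apart from Flt3, edgeR called none of their members, and each of these 7 lists had 0 to 6 members at an unadjusted p under 0.05.

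Metabolic and stress lists were nearly level. Ribosome biogenesis and Myc genes had a median of 0.11 (Npm1 0.24, Ncl 0.16), glycolysis and hypoxia -0.087 (Ldha 0.16, Pkm -0.39) and mitochondrial respiration 0.02 (Atp5b 0.042). Lysosome and autophagy genes had -0.091 (Map1lc3b -0.28, Sqstm1 -0.35), retinoic acid and aldehyde metabolism 0.067 (Aldh2 0.03, Adh5 -0.26) and drug transporters and detoxification -0.071 (Gpx1 -0.071, Prdx1 0.13). Immediate early and handling stress genes had 0.063, with Fos at -0.053 and Ier2 at 0.059. None of their members was called by edgeR, and each of these 7 lists had 0 to 3 members at an unadjusted p under 0.05. With only Y-linked and only Xist columns, glycolysis was at -0.18 and 0.11 and mitochondrial respiration at -0.21 and 0.23. Retinoic acid genes were at -0.12 and 0.44, immediate early genes at -0.12 and 0.30 and lysosome genes at -0.37 and -0.21. Ribosome genes were at 0.0095 and 0.22 and drug transporters at -0.039 and 0.063.

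**Figure D4:**
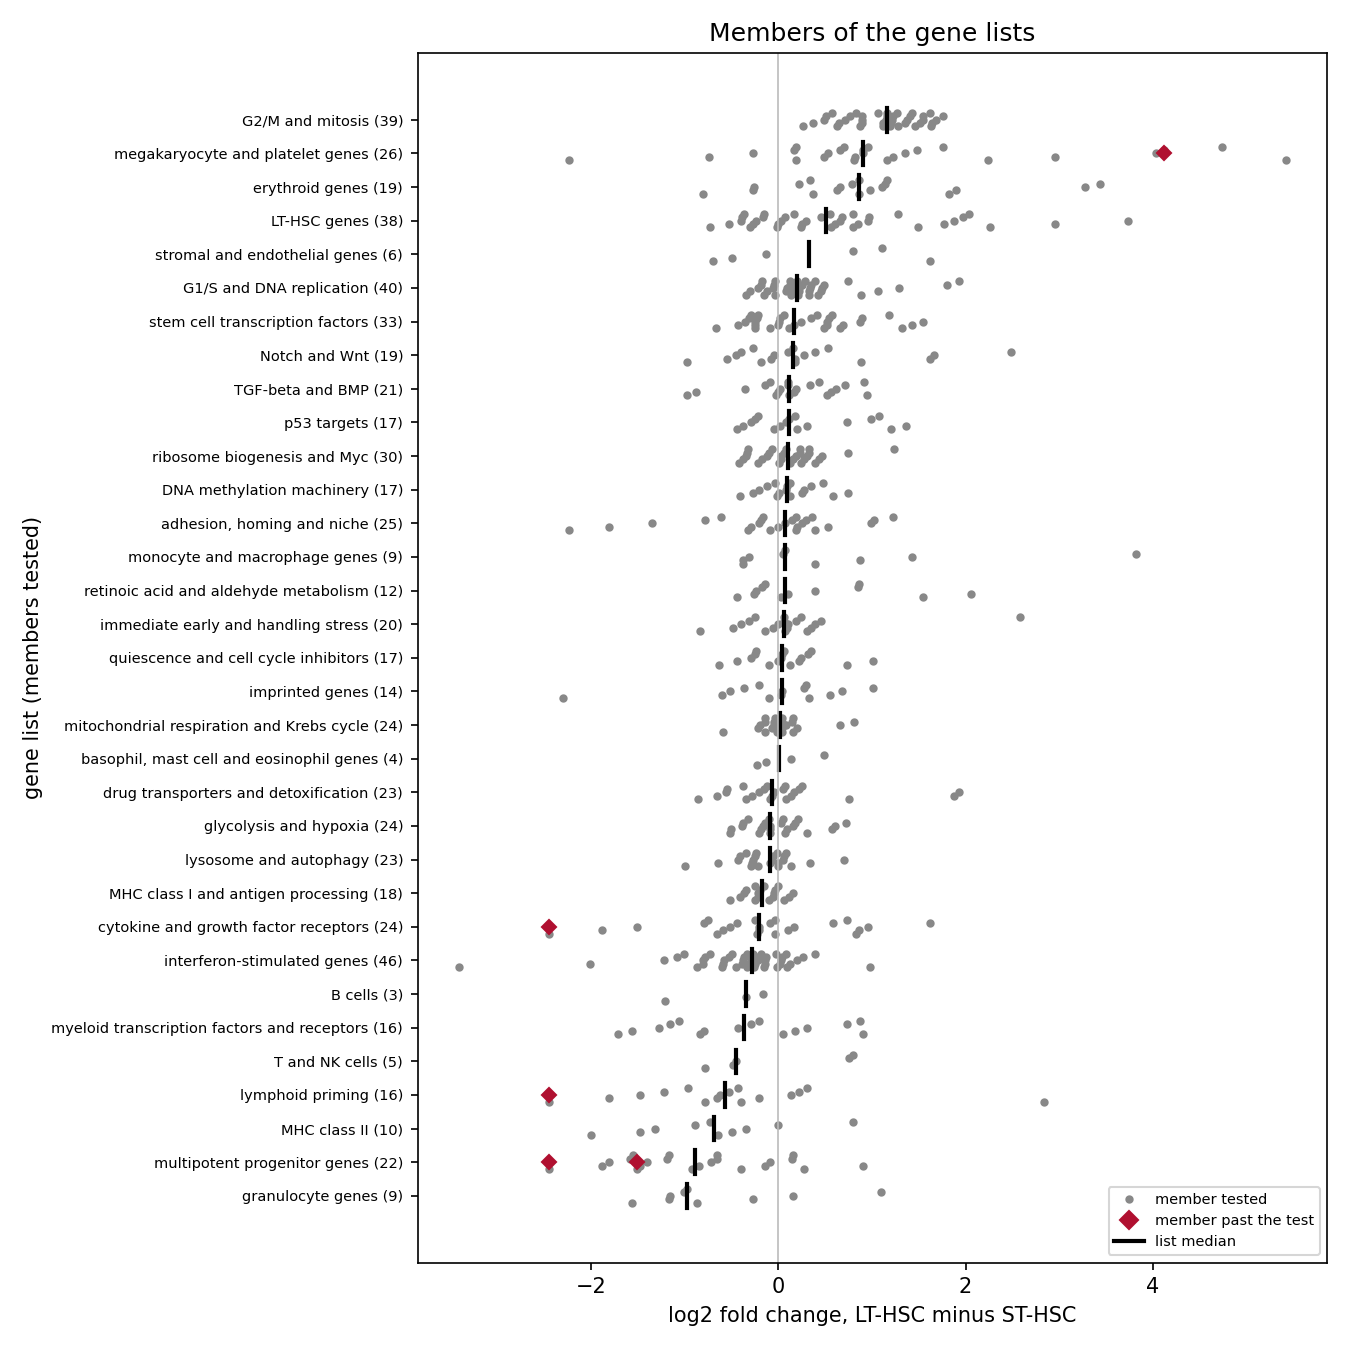
Log2 fold changes, LT-HSC minus ST-HSC, of the tested members of 33 gene lists, with the number tested in brackets. Grey points are members, red diamonds the members past the test and black bars the list medians, which run from -0.97 for granulocyte genes to 1.17 for G2/M genes.

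Lists of other cell types were checked for cells that the sort could have held. T and NK cell genes had 5 of 20 members tested, with Cd3e at 0 in all 16 columns and a summed level of 92.9, 159 and 214 CPM in LT-HSC and 124, 216 and 256 CPM in ST-HSC, with Nkg7 the largest part. B cell genes had 3 of 16 tested, with Cd79a at or below 0.377 CPM and a summed level of 23.4, 93.4 and 149.6 CPM and 87.5, 169 and 274 CPM. Stromal and endothelial genes had 6 of 21 tested, with Cdh5 at 0 in all 16 columns and sums of 95.7, 130.2 and 199.8 CPM and 96.4, 162 and 259 CPM. Basophil, mast cell and eosinophil genes had 4 of 17 tested and sums of 1085, 1310.2 and 1802 CPM and 1181, 1396 and 1997 CPM, most of it Srgn, which many blood cells express. Among the defining genes of this list, Mcpt8 reached 94.8 CPM in LT-HSC but 1.68 CPM in ST-HSC, with medians of 0.0272 and 0 CPM. Cpa3 reached 10.2 CPM in LT-HSC and 8.32 CPM in ST-HSC, and Prg2 4.36 and 2.77 CPM. Monocyte and macrophage genes had 9 of 21 tested and sums of 338, 519 and 717 CPM and 317, 560.1 and 658 CPM. Of their defining genes, C1qa was at 0 in 5 LT-HSC and 6 ST-HSC columns, and Ly86 reached 146 CPM in LT-HSC but 3.87 CPM in ST-HSC. No member of these 5 lists was called by edgeR over the 16 columns, with 3 at an unadjusted p under 0.05. DESeq2 called 3 and limma-voom 2. The summed level of granulocyte genes was 441, 566 and 3815 CPM in LT-HSC and 616, 942 and 3788 CPM in ST-HSC, and the highest LT-HSC column was WT 1. Whether other cells had a part in the differences above was not tested.

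**Figure D5:**
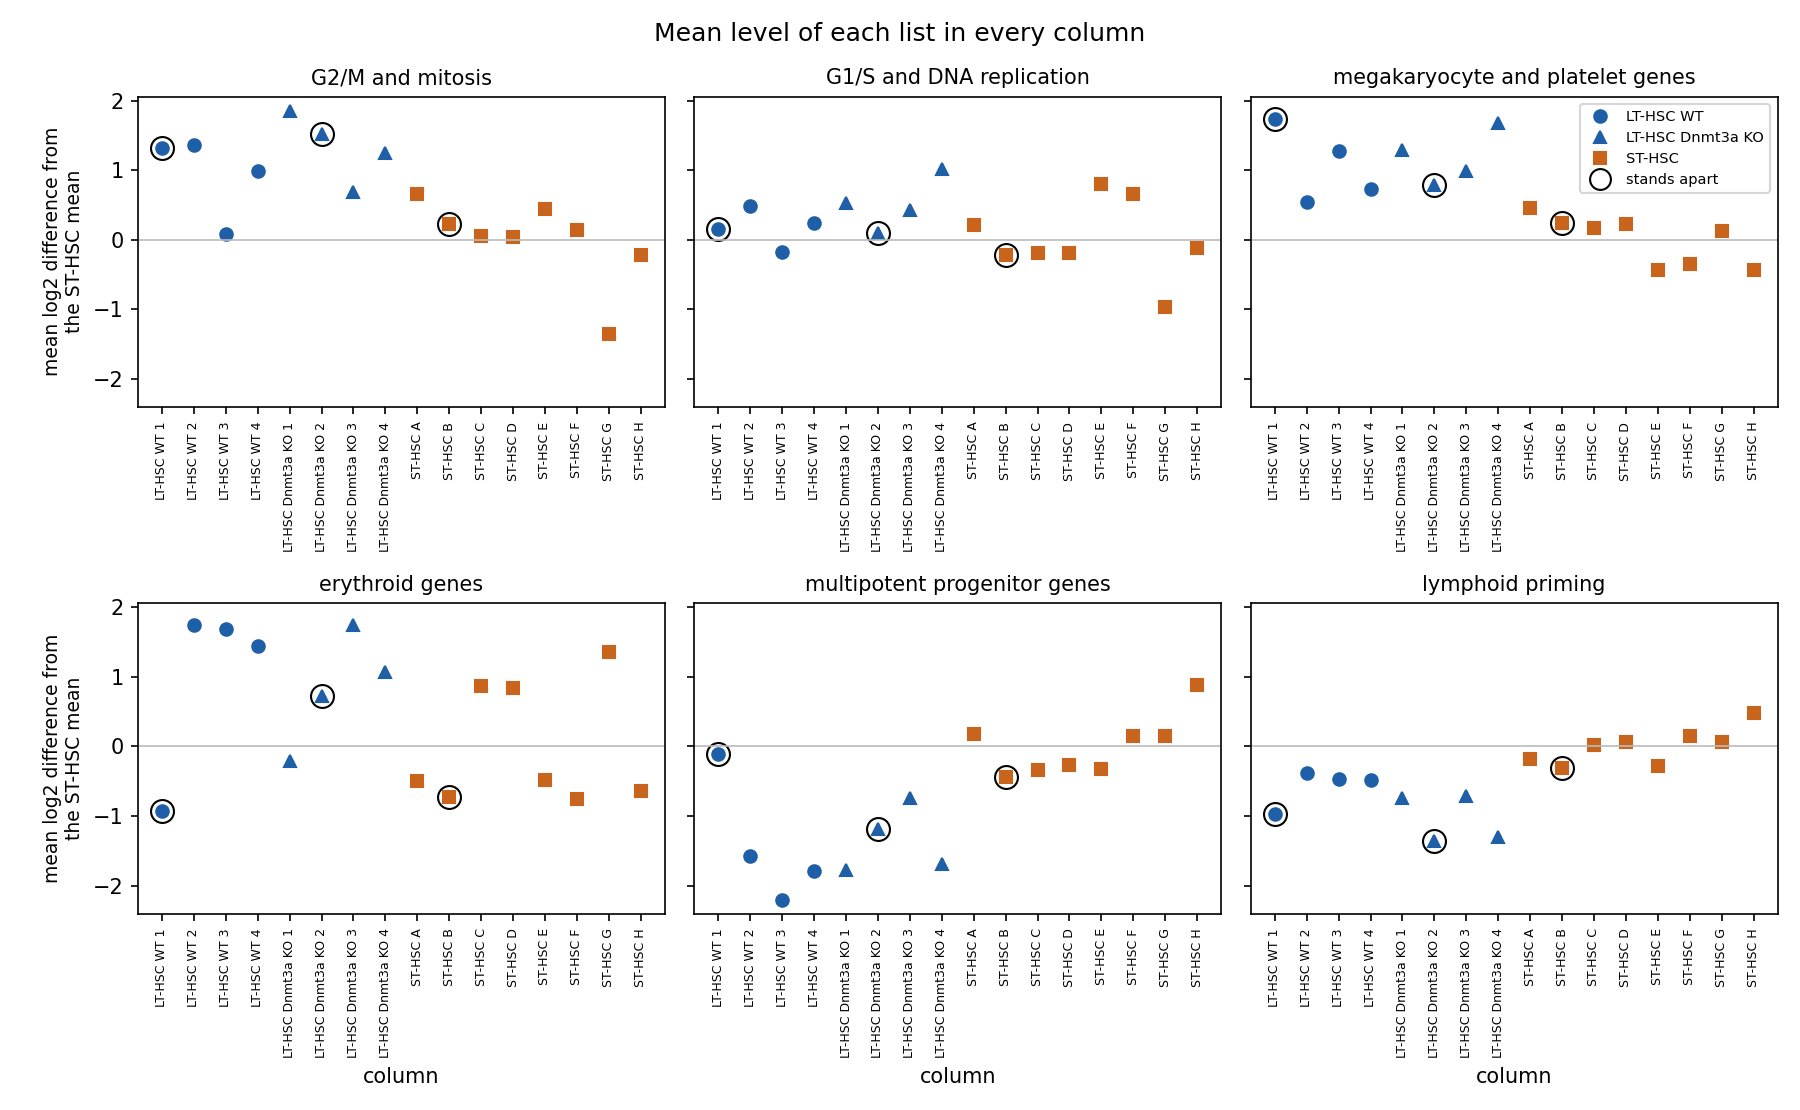
Mean log2 level of 6 gene lists in each of the 16 columns, as the difference from the mean of the 8 ST-HSC columns on the log2(CPM + 0.5) scale. Blue circles are LT-HSC WT, blue triangles LT-HSC Dnmt3a KO and orange squares ST-HSC, and rings mark the columns that stand apart. The populations do not overlap for megakaryocyte and lymphoid priming genes, while LT-HSC WT 3 for G2/M and LT-HSC WT 1 for multipotent progenitor genes reach the ST-HSC range.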

How the data were processed

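Sorted mouse bone marrow cells were compared over 16 columns, 8 per population. The authors deposited unnormalized counts of reads for each gene symbol. The submitters' processing notes list Trim Galore 0.6.7, HISAT2, featureCounts 2.0.1, DESeq2 1.34.0 and mm10. Annotation and strand setting were not found among these notes, so reads of overlapping or antisense genes cannot be told apart. Columns were mapped by name. The table of transposable elements was not used here.

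Counts were analysed in R 4.3.3. Genes kept by filterByExpr (minimum count 10, minimum total count 15) were fitted by quasi-likelihood in edgeR 4.0.16 on TMM-scaled totals, with no covariates. P-values were adjusted by Benjamini-Hochberg over all 12707 tested genes, with a threshold of 0.05. The code was checked on simulated data. Levels in CMP/GMP and MEP come from a scaling over the 4 sorted populations and had no test. Of 35976 symbols, 32496 matched the gene table by symbol and 1005 through an older symbol.

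The genes always named include Slamf1, Procr, Cd34, Cd48, Flt3, Kit, Ly6a and Dnmt3a. Some genes that the rule names are not reported here. To these the rule adds, per direction, up to 12 called genes without overlap and with a mean of at least 5 CPM, leaving out predicted names. From each of the 33 lists it takes up to 5 called members, or the 2 highest in abundance where none was called. Further genes were chosen after their values were seen. The members and lists were chosen with earlier results of these data known.

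Alternatives were DESeq2 1.42.0, limma-voom (limma 3.58.1) with quality weights, RLE size factors, other filters, either LT-HSC genotype alone, each column left out, thinned counts, a term for sex, no genes of X and Y, and 1 fit over the 4 sorted populations. Fits without the 3 columns that stood apart, with the near-identical columns summed, and within each sex were added after seeing the data.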

Additional observations from a re-analysis of the deposited data

Results flagged for a closer look

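In 10 of 68 pairs of a gene and a population, 1 of the 8 columns lay far from the other 7 on the log2 scale (Dixon's test at 95%), among the genes always named, called or without overlap. Chance flags about 1 in 20. Pf4 reached 2323 CPM in LT-HSC WT 1, with the next LT-HSC column at 248 CPM. LT-HSC Dnmt3a KO 2 was the low column for Procr (14.7 CPM, next 66.5), Lat2 (0.768 CPM, next 6.21) and Capn2 (0 CPM, next 8.72). Cd38 reached 46.8 CPM in LT-HSC WT 3, with the next column at 26.2 CPM, and Slc44a2 was lowest at 96.6 CPM in LT-HSC WT 2, with the next at 134 CPM. ST-HSC G was the low column for Ube2c (14.8 CPM, next 70.9) and Dbf4 (2.59 CPM, next 26.8), a kinase activator of replication. ST-HSC H was the low column for Ehd3 (0 CPM, next 12.2) and Mfsd2b (0.164 CPM, next 6.07). LT-HSC WT 1 and LT-HSC Dnmt3a KO 2 are 2 of the 3 columns that stood apart, and ST-HSC G and H are not. The test of whether the difference between the populations differed between the sexes called 0 of 12707 genes by edgeR. It had 499 genes at an unadjusted p under 0.05 and a lowest edgeR adjusted p of 0.322.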

How the results depend on the processing

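Over all 16 columns edgeR called 9 genes, 3 higher in LT-HSC and 6 higher in ST-HSC. Leaving out each column in turn gave 4 to 12 calls, 1 to 3 higher in LT-HSC and 3 to 9 higher in ST-HSC. The total moved by over 1.5 times without LT-HSC WT 2 (5), LT-HSC WT 4 (4), LT-HSC Dnmt3a KO 4 (5), ST-HSC C (4) and ST-HSC H (4). The alternatives' counts, as total, higher in LT-HSC and higher in ST-HSC, were 222, 135 and 87 with DESeq2. They were 521, 359 and 162 with limma-voom, 13, 6 and 7 with no filter on low counts, and 10, 4 and 6 with RLE size factors or a stricter filter. They were 19, 11 and 8 with a term for sex and 38, 29 and 9 in 1 fit over 4 sorted populations. Only LT-HSC WT gave 0 in all (705 at an unadjusted p under 0.05), and only LT-HSC KO gave 3, 0 and 3. The added fits gave 32, 14 and 18 without the 3 columns, 4, 1 and 3 with the 2 near-identical columns summed, 19, 7 and 12 with both, 0 with only Y-linked columns (362 at an unadjusted p under 0.05) and 27, 13 and 14 with only Xist columns. Thinning to the smallest total and leaving out genes of X and Y each kept 9 calls, all of the same genes. No called gene reversed its sign in any of 32 alternatives, which was largely fixed in advance because the genes were chosen on the same columns. Cd34 and Sdpr kept their call in 29, Ctla2a and Rgs1 in 28, Flt3 and Pf4 in 18, Lat2 in 15, and Mt1 and Rgs2 in 13. The median of the G2/M list was 0.97 to 1.27 over the 33 fits, that of the megakaryocyte list 0.75 to 1.19 and that of the multipotent progenitor list -1.80 to -0.57. These fits share columns, so the constant sign of each median is no separate support. The planned sum of columns within sampling noise was not run, because no pair was that close. The closest pair, ST-HSC C and D, may still be 1 sample, and the sum of both is the added fit above. No paired analysis was possible because the ST-HSC columns carry repeated names, so their numbers cannot be tied to single libraries.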
